A study of Mus musculus with 2 samples.

Results

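Regulatory T cells were examined in single-cell RNA sequencing of inflamed mouse colon. They were selected on their own transcripts: barcodes had a minimum of 200 genes and less than 20% of UMIs from mitochondrial genes, at least 1 UMI (1 counted molecule) of Foxp3 and at least 1 of Cd3d, Cd3e or Cd3g, none of Cd8b1 or Csf1r, at most 3 of Epcam and at most 2 of Mki67 and Top2a together. The rule found 105 cells, 75 in library 1 and 30 in library 2, of 16208 barcodes in all. Both libraries belong to 1 group: mid-colon, with all its cells, from 7-week-old mice free of specific pathogens that had 3% dextran sulfate sodium (DSS), which damages the epithelium of the colon, for 6 days. No genotype or strain was given in the sources used here and no untreated colon was compared, so every comparison below is between cell classes of the same colons and none describes an effect of DSS. The libraries are numbered as repeats, and the labels do not say that they came from separate animals, so the spread on which the p-values rest may be no more than technical.

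Regulatory T cells are CD4 T cells that restrain other lymphocytes. The transcription factor Foxp3 fixes their identity, the high-affinity IL-2 receptor chain Il2ra lets them compete for IL-2 made by conventional T cells, and Ctla4 limits costimulation by antigen-presenting cells. In the colon they include cells with Ikzf2 (Helios), often of thymic origin, that can carry the IL-33 receptor Il1rl1 and Gata3 and make the repair factor Areg, and cells with Maf that are induced locally in response to the gut flora and are a source of IL-10.

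The classes they were compared with were gated in the same way, with the same limits on Csf1r, Epcam, Mki67 and Top2a. Conventional CD4 T cells (a Cd4 UMI and a CD3 UMI, no Foxp3 or Cd8b1) numbered 252 in library 1 and 597 in library 2. Regulatory T cells needed no Cd4 UMI, and 42 of 75 and 20 of 30 held at least 1. CD8 alpha beta T cells (a Cd8b1 UMI and a CD3 UMI, no Foxp3 or Cd4) numbered 343 and 591. Regulatory T cells held 374010 and 119782 UMIs in all and a median of 4056 and 3651.5 UMIs a cell, against 5401.5 and 4608 in conventional CD4 T cells. Their median mitochondrial share was 2.73% and 1.92%, against 2.63% and 2.03%. The libraries shared 18 barcodes, and no regulatory T cell barcode of one library occurred in the other.

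Foxp3 (chrX:7573644-7595245, GRCm38, plus strand) chose the cells, and its counts are given as a description. Members held 1 to 13 Foxp3 UMIs. In library 1, 20 cells had 1 UMI, 21 had 2 and 34 had 3 or more, and in library 2 the numbers were 11, 3 and 16. A Foxp3 UMI was found in 0 of 623 phagocytes of library 1, which allows a share of up to 0.482%, and in 0.141% of phagocytes of library 2, whose median depths were 9319 and 7579 UMIs. In epithelial cells the share was 0.585% and 0.0936% at median depths of 16259 and 19038 UMIs. Of the other markers of the label, Cd3e, a gate gene, was detected in 89.3% and 86.7% of members. Ctla4 and Il2ra are given below.

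**Figure D1:**
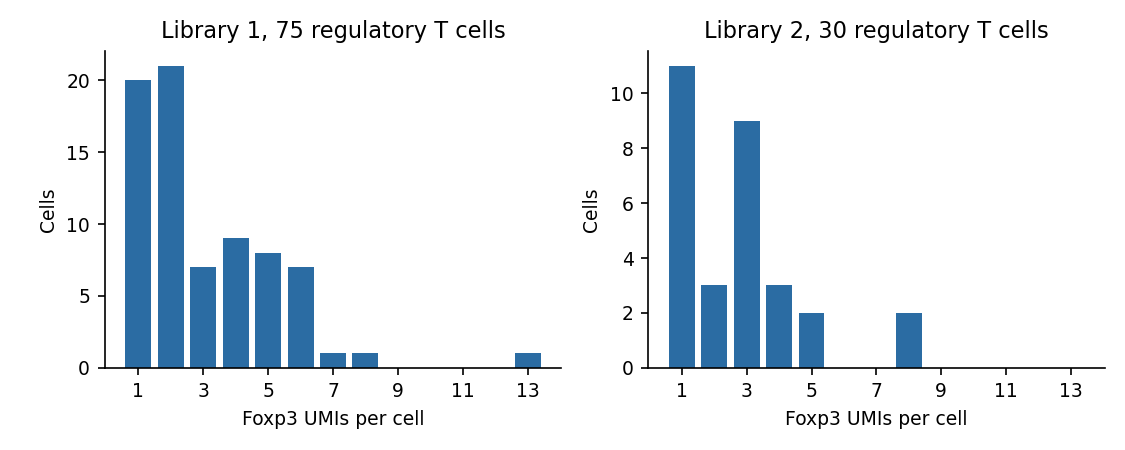
Number of regulatory T cells (y axis) by Foxp3 UMIs per cell (x axis) in library 1 (left) and library 2 (right). Cells with 1 UMI, just inside the rule, were 20 of 75 in library 1 and 11 of 30 in library 2.

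Members with a single Foxp3 UMI had lower levels of several regulatory T cell genes in library 1 than the other members, and not all of these in library 2; these values have no test. Ctla4 was detected in 70% of members of library 1 with 1 Foxp3 UMI, 95.2% of those with 2 and 91.2% of those with 3 or more, at summed levels of 1000 CPM, 2713 CPM and 2187 CPM (CPM are counts scaled to the same total of UMIs in each sum). Il7r was detected in 70%, 90.5% and 88.2% of the same cells. Ikzf2 had its highest level in members with 1 Foxp3 UMI, with 1000, 653 and 898 CPM in the same order. The 20 members of library 1 with 1 Foxp3 UMI include a barcode of 27273 UMIs, 2430 of them from fibroblast markers. That barcode held 0 Ikzf2 UMIs, so its UMIs lower the summed Ikzf2 level of this group. Its part in the other summed levels was not tested. In library 2, where 3 members had 2 Foxp3 UMIs, Ctla4 was at 1685 CPM in members with 1 and 1354 CPM in those with 3 or more. The level of Il2ra was 198 CPM in members of library 1 with 1 Foxp3 UMI, 619 CPM with 2 and 664 CPM with 3 or more, against 55.1 CPM in conventional CD4 T cells. By share of cells, Il2ra was detected in library 1 in 60% of members with 1 Foxp3 UMI and in 67.6% of those with 3 or more, against 16.3% of conventional CD4 T cells. After every cell was thinned to 1500 UMIs these shares were 38.9%, 35.3% and 7.32%. In library 2 they were 63.6% and 75.0%, against 21.6% (thinned, 55.6%, 43.8% and 7.30%). In phagocytes, which should lack the gene, Il2ra was detected in 1.77% and 1.55% of cells. The median depths of members with 1 Foxp3 UMI were 3791.5 and 3464 UMIs. Tnfrsf9 differed more with the Foxp3 count in library 1, with 45.0% of members at 1 Foxp3 UMI and 76.5% at 3 or more, and did not in library 2, with 45.5% and 43.8%.

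Markers of T cells and of other cell types were measured in the members. T cell markers (8 genes, with the CD3 gate genes) summed to 4398 and 5042 CPM, against 6617 and 6864 CPM in conventional CD4 T cells. Outside the gate, Trbc2 was detected in 76.0% and 90.0% of members, against 96.4% and 96.8%. Lck was detected in 50.7% and 46.7%, against 84.9% and 75.5%. Of these 8 genes only Cd2 was higher in members, at 465 and 534 CPM, against 348 and 373 CPM. Whether some members are not T cells was not tested. B cell, natural killer cell and dendritic cell markers summed to 34.8, 120 and 0 CPM in library 1 and to 8.35, 66.8 and 33.4 CPM in library 2. Of 7 natural killer cell markers, 5 were at 0 in both libraries, among them Ncr1, Klrb1c and Eomes. Among the B cell markers, Ms4a1 and Pax5 were at 0 in both. In library 1, 1 cell held 2430 of the 2440 UMIs of 5 fibroblast markers, and in library 2, 1 cell held 16 of the 32 UMIs of 4 endothelial markers. Neutrophil markers (6 genes) summed to 856 and 1227 CPM in regulatory T cells, against 7106 and 6135 CPM in conventional CD4 T cells and 6084 and 6083 CPM in CD8 alpha beta T cells. Epithelial markers (8 genes, none at 0) summed to 912 and 1094 CPM in regulatory T cells, against 816 and 921 CPM in conventional CD4 T cells, 835 and 869 CPM in CD8 alpha beta T cells and 19879 and 21070 CPM in epithelial cells. Krt8 alone was detected in 72.0% and 73.3% of members, against 69.4% and 70.5% of conventional CD4 T cells and 78.0% and 75.5% of phagocytes. The part of such RNA in the results below was not tested. Several results that rest on such genes or on 1 cell are also given, where a test could be made, without barcodes that held 15 or more UMIs of another lineage's list, a setting chosen after the data had been seen. It removed 1 member from each library.

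The libraries differed in how many T cells were regulatory. They made up 5.26% of the non-dividing CD3-positive cells of library 1 (75 of 1425, exact 95% binomial interval 4.16 to 6.55) and 1.46% of those of library 2 (30 of 2058, 0.986 to 2.07), a mean of 3.36% ± 2.69 (SD, n = 2). Of CD4 T cells, regulatory plus conventional, they were 22.9% (18.5 to 27.9) and 4.78% (3.25 to 6.76), and 14.3% (10.5 to 18.8) and 3.24% (1.99 to 4.96) when regulatory T cells too had to hold a Cd4 UMI. The intervals cover counting error only. They do not overlap, but with 1 group of 2 libraries there is no test. A minimum of 2 Foxp3 UMIs gave 3.86% and 0.923% of T cells, and requiring a Cd4 UMI gave 2.95% and 0.972%, so library 1 had the higher share under both as well.

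Raw counts were summed per class and library, and 10 sums of 5 lymphocyte classes entered 1 edgeR quasi-likelihood fit with the library as a block. Of 7388 genes tested against conventional CD4 T cells, 212 (2.87%) were higher and 179 (2.42%) lower in regulatory T cells at an adjusted p under 0.05 (Benjamini-Hochberg over all genes), with a median log2 fold change over all genes of -0.02. Genes of the gates, Foxp3 among them, were not tested. Levels below are TMM-normalised CPM, given for library 1 and then library 2, and differences are log2 fold changes ± SE (n = 2 libraries each), regulatory over the other class. A value for 1 library alone is a fitted difference with no test. Gene lists were chosen with earlier results of these data known, so their counts are descriptions.

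The regulatory T cell identity genes were largely higher than in conventional CD4 T cells: 12 of 18 tested genes of the list were higher and none lower, with a median difference of 1.64. Il2ra had 534 and 415 CPM in regulatory T cells, against 58.9 and 88.2 CPM in conventional CD4 T cells, a difference of 2.70 ± 0.22 (adjusted p = 2.27e-05). Ctla4 (chr1:60887000-60915832) had 2022 and 1342 CPM, against 752 and 539 CPM (1.38 ± 0.20, adjusted p = 0.00143). For both genes each regulatory T cell value lay above each conventional one. Thinned to 1500 UMIs a cell, Ctla4 was detected in 79.2% and 85.7% of regulatory T cells, against 46.7% and 44.5% of conventional CD4 T cells and 0.835% and 0.875% of phagocytes. Unthinned, the shares were 86.7% in both libraries, against 73.8% and 70.9%, and 3.53% and 2.54% of phagocytes.

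A set of costimulatory receptors of the TNF receptor family were higher. Tnfrsf9 (4-1BB) had 651 and 248 CPM in regulatory T cells, against 41.8 and 52.9 CPM in conventional CD4 T cells (3.31 ± 0.30, adjusted p = 4.67e-05). Tnfrsf4 (OX40) had 1234 and 567 CPM, against 323 and 275 CPM (1.59 ± 0.26, adjusted p = 0.00346). Tnfrsf18 (GITR), whose gene lies next to Tnfrsf4 on chromosome 4, had 632 and 360 CPM, against 258 and 255 CPM (1.0 ± 0.19, adjusted p = 0.00856). All were higher in library 1 than in library 2 within regulatory T cells. Tnfrsf9 differed by 3.96 in library 1 alone and by 2.23 in library 2 alone.

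Transcription factors and surface proteins of the identity list followed. Ikzf2 had 889 and 1654 CPM in regulatory T cells, against 208 and 159 CPM in conventional CD4 T cells (2.78 ± 0.34, adjusted p = 0.000356), and its relative Ikzf4 (Eos) had 52.0 and 39.9 CPM, against 5.22 and 2.80 CPM (3.59 ± 0.68, adjusted p = 0.0107). Ikzf2 differed by 2.09 in library 1 alone and by 3.38 in library 2 alone. Its call was lost (1.09, adjusted p = 0.114) when the conventional class was widened to CD3-positive cells with or without Cd4. This wider class, also without Foxp3 and Cd8b1, numbered 985 and 1400 cells, against 252 and 597. Most of its cells held no Cd4 UMI and were not shown to be CD4 T cells. A call lost against it is therefore not a result against conventional CD4 T cells alone. Lrrc32 (GARP), which holds latent TGF-beta on the cell surface, had 20 UMIs in regulatory T cells, against 2 UMIs in conventional CD4 T cells. The ratio was 85.6 (95% counting interval 20.8 to 755), and the edgeR test gave an adjusted p of 0.00242. This ratio and those below divide UMIs pooled over both libraries by pooled library sizes, without the library block. Their intervals take each UMI as independent. Lrrc32 differed by 5.19 in library 1 alone and by 7.17 in library 2 alone. Klrg1, carried by effector regulatory T cells, had 90.3 and 87.9 CPM, against 11.2 and 9.10 CPM (3.15 ± 0.43, adjusted p = 0.00115). The actin-capping protein gene Capg (2.0 ± 0.19), the folate receptor gene Izumo1r (1.36 ± 0.21) and Nt5e (1.14 ± 0.17), the CD73 enzyme that makes adenosine, were also higher, with adjusted p of 4.83e-05, 0.00376 and 0.00161.

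The other 6 tested identity genes did not pass. Icos had 832 and 975 CPM in regulatory T cells, against 896 and 837 CPM in conventional CD4 T cells (0.05 ± 0.16, adjusted p = 0.923), and the groups overlapped. Entpd1, the CD39 enzyme upstream of Nt5e, had 32.8 and 39.9 CPM, against 64.9 and 58.8 CPM (-0.76 ± 0.36, adjusted p = 0.285). Nrp1 and Tigit had at most 79.9 CPM in regulatory T cells, with differences of 1.90 ± 0.63 (adjusted p = 0.110) and 0.60 ± 0.63 (adjusted p = 0.693). Cd83 and Swap70 were not called either. Gpr83 and Ccr8 were too low to test, and Ccr8 had 12 UMIs in 9 members of library 1 and none in library 2, which allows 10.0% of its 30 members.

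**Figure D2:**
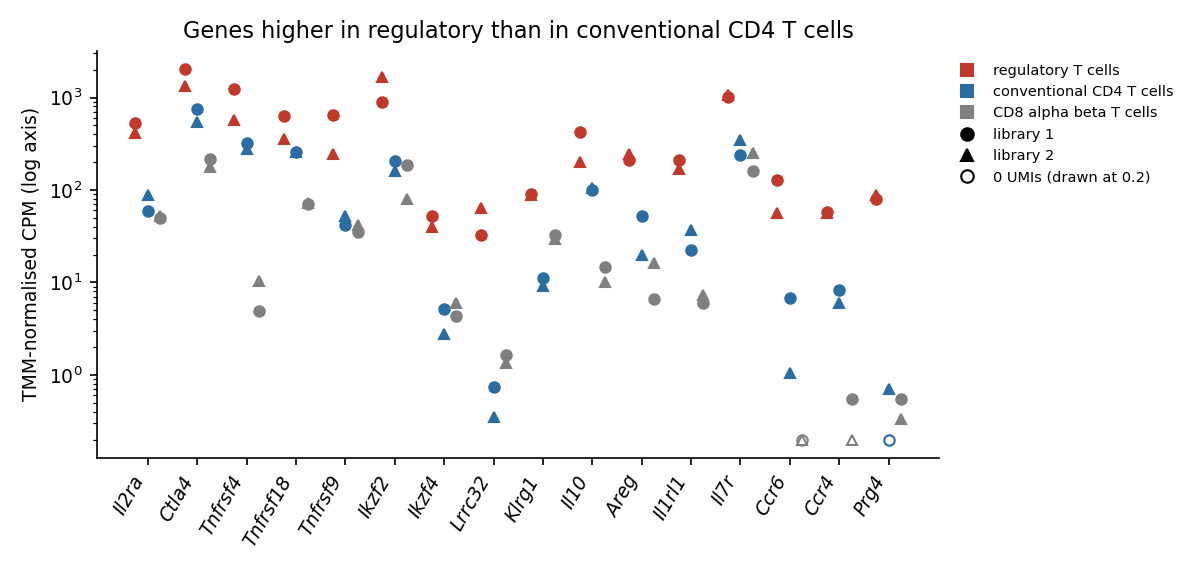
TMM-normalised CPM (log axis) of 16 genes in regulatory T cells (red), conventional CD4 T cells (blue) and CD8 alpha beta T cells (grey), 1 point per library (circles library 1, triangles library 2). Each red point lies above each blue point of the same gene, as with Il2ra at 534 and 415 CPM against 58.9 and 88.2 CPM.

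Effector genes split. Of 12 tested genes of suppression and tissue repair, 3 were higher than in conventional CD4 T cells and 1 was lower (median 0.08). Il10, the anti-inflammatory cytokine, had 419 and 200 CPM in regulatory T cells, against 101 and 105 CPM in conventional CD4 T cells (1.65 ± 0.30, adjusted p = 0.00602). It came from 31 of 75 and 7 of 30 members, and 1 cell held 30.3% of its UMIs. Areg (chr5:91139599-91148432), the EGF family ligand amphiregulin, had 213 and 248 CPM, against 52.9 and 20 CPM (2.72 ± 0.42, adjusted p = 0.00207). It was found in 14 of 75 and 11 of 30 members. Fgl2, a secreted suppressive fibrinogen-like protein, had 222 and 240 CPM, against 107 and 68.6 CPM (1.35 ± 0.23, adjusted p = 0.00390), a call lost with the wider conventional class (0.33, adjusted p = 0.434). In library 1 and library 2 alone, Il10 differed by 2.05 and 0.93 and Areg by 2.01 and 3.63.

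Furin, the protease that cuts pro-TGF-beta, was the lower gene, with 186 and 112 CPM in regulatory T cells, against 744 and 640 CPM in conventional CD4 T cells (-2.12 ± 0.23, adjusted p = 0.000220). Tgfb1 itself had 164 and 112 CPM, against 102 and 87.9 CPM (0.58 ± 0.23, adjusted p = 0.186). Gzmb had 835 and 1198 CPM, against 1306 and 947 CPM (-0.16 ± 0.28, adjusted p = 0.837), and the classes overlapped. The checkpoint genes Lag3, Pdcd1 and Havcr2 had at most 76.6 CPM in regulatory T cells and were not called. The IL-35 subunit genes Ebi3 and Il12a, the TGF-beta activating integrin gene Itgb8 and the enkephalin gene Penk were too low to test. In library 1 Penk had 26 UMIs in 6 members, and in library 2 it had 1.

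Cytokine receptors moved in both directions. Of 23 tested, 5 were higher and 4 lower (median 0.46). Il1rl1, the IL-33 receptor ST2, had 213 and 168 CPM in regulatory T cells, against 22.4 and 37.1 CPM in conventional CD4 T cells (2.81 ± 0.33, adjusted p = 0.000261). Il7r, the IL-7 receptor chain, had 1026 and 1063 CPM, against 240 and 350 CPM (1.86 ± 0.17, adjusted p = 4.73e-05). Il6st, the shared gp130 signalling chain of the IL-6 family, had 383 and 152 CPM, against 52.9 and 36.4 CPM (2.73 ± 0.36, adjusted p = 0.000643). The values of each class were apart from those of the other in all 3 genes. Il4ra (1.52 ± 0.23, adjusted p = 0.00203) and the TNF receptor gene Tnfrsf1b (0.84 ± 0.17, adjusted p = 0.00951) were higher as well, and both lost the call when cells were thinned to 1500 UMIs (adjusted p = 0.110 for Il4ra and 0.393 for Tnfrsf1b). Tnfrsf1b also lost it with no filter on low counts (0.163). Il1rl1 differed by 3.24 and 2.17 and Il6st by 2.85 and 2.06 in library 1 and library 2 alone.

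The lower receptor genes were Il12rb2, Il18rap, Il18r1 and Tgfbr2. Il12rb2, the IL-12 receptor chain, had 1 UMI in all regulatory T cells, against 113 and 91.7 CPM in conventional CD4 T cells, a ratio of 0.0207 (95% counting interval 0.000522 to 0.116; adjusted p = 0.000403). That UMI was in library 1, where the difference was -5.29, and library 2 alone gives no fold. The IL-18 receptor chains Il18rap (46.5 and 47.9 CPM, against 156 and 194 CPM; -1.82 ± 0.23, adjusted p = 0.000504) and Il18r1 (156 and 87.9 CPM, against 343 and 329 CPM; -1.32 ± 0.24, adjusted p = 0.00566) were also lower. Il18r1 was not called against the wider conventional class (-0.24, adjusted p = 0.738). Tgfbr2 had 87.6 and 87.9 CPM, against 163 and 165 CPM (-0.91 ± 0.21, adjusted p = 0.0234), a call that DESeq2 did not make (adjusted p = 0.0671). The other IL-12 receptor chain Il12rb1 (-0.32 ± 0.42, adjusted p = 0.762) and the interferon gamma receptor chains Ifngr1 (0.46 ± 0.16, 0.135) and Ifngr2 (0.89 ± 0.45, 0.332) were not called.

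Few UMIs of helper cytokines were found in regulatory T cells. Of 7 tested effector cytokine and ligand genes 4 were lower and none higher, with a median of -3.34, or -2.54 with Il21 set at its bound. Ifng had 7 UMIs in 4 cells of library 1 and none in library 2, or 19.2 and 0 CPM, against 932 and 719 CPM in conventional CD4 T cells (-5.89 ± 0.45, adjusted p = 1.28e-05), or -5.59 in library 1 alone. Il21 had no UMI in regulatory T cells, against 55.2 and 26.3 CPM in conventional CD4 T cells, which places it at least 5.80-fold lower (floor of 3 UMIs over both libraries; adjusted p = 0.0155). The B cell help ligand Cd40lg had 13.7 and 7.99 CPM, against 142 and 85.8 CPM (-3.34 ± 0.43, adjusted p = 0.00105), and the death ligand Fasl 8.21 and 7.99 CPM, against 104 and 94.9 CPM (-3.57 ± 0.45, adjusted p = 0.000630). Il21 was not called by DESeq2 (adjusted p = 0.782), and Cd40lg was not called against the wider conventional class (-1.81, adjusted p = 0.0539). Il17a had 1 UMI in all members, and Il2, Il4, Il5, Il13, Il22 and Csf2 had none, which allows up to 4% of the members of library 1 and 10.0% of those of library 2 to hold a UMI. Only 7 of the 19 genes of the list had enough counts to be tested. These low counts stand without levels in conventional CD4 T cells and are not read as a difference between the classes.

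Most of the cytotoxic list was lower: 9 of 12 genes passed and none was higher, with a median of -2.78 (-2.72 with Prf1 at its bound). The chemokine gene Ccl5 had 224 CPM in both libraries in regulatory T cells, against 8211 and 5295 CPM in conventional CD4 T cells (-4.91 ± 0.40, adjusted p = 2.10e-05). The granule protein gene Nkg7 had 101 and 208 CPM, against 960 and 917 CPM (-2.77 ± 0.24, adjusted p = 3.09e-05), with -3.24 in library 1 alone and -2.14 in library 2 alone. The pore-forming protein gene Prf1 had no UMI, against 27.6 and 35.7 CPM, at least 5.42-fold lower (adjusted p = 0.0127). Klrd1 had 1 UMI, against 82.0 and 99.4 CPM, a ratio of 0.0217 (0.000548 to 0.122; adjusted p = 0.000240), with -4.83 in library 1 alone, where that UMI was. Gzma differed by -3.83 in library 1 alone and by -0.65 in library 2 alone (-2.67 ± 0.69 in both, adjusted p = 0.0403), with 71.1 and 128 CPM in regulatory T cells, against 1017 and 200 CPM in conventional CD4 T cells. Gzmk (-3.07 ± 0.50), Ccl3 (-2.16 ± 0.50, or -1.68 in library 1 alone, with all its 17 UMIs in 1 cell), Ccl4 (-3.67 ± 0.53) and Ctsw (-1.82 ± 0.31) were the other lower genes. Thinning ended the calls of Prf1 (adjusted p = 0.0589), Gzmk (0.0541, and 0.0768 with the wider conventional class) and Ccl3 (0.280, and 0.136 with doublets removed), and keeping dividing cells those of Klrd1 (0.0579) and Ccl4 (0.0542). Gzma was not called by DESeq2 (0.130), without the block (0.0519) or with a minimum of 2 Foxp3 UMIs (0.0584). Gzmk differed by -3.55 in library 1 alone and by -2.23 in library 2 alone.

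**Figure D3:**
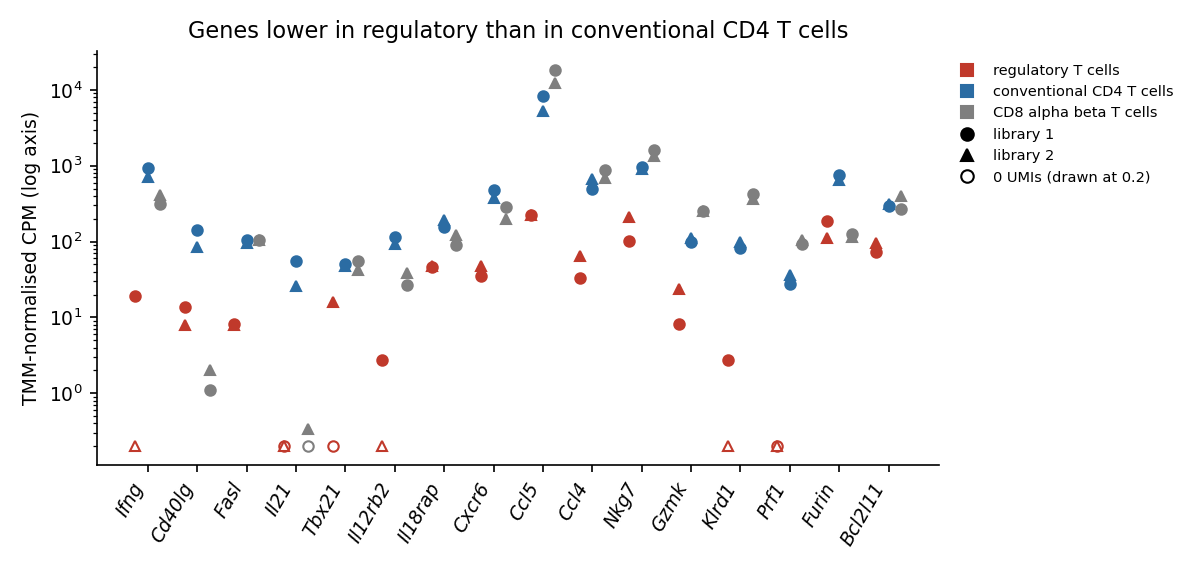
TMM-normalised CPM (log axis) of 16 genes in regulatory T cells (red), conventional CD4 T cells (blue) and CD8 alpha beta T cells (grey), 1 point per library. Open symbols, drawn at 0.2, are sums with 0 UMIs, and each red point lies below each blue point of the same gene, as with Ccl5 at 224 CPM in both libraries against 8211 and 5295 CPM.

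Transcription factors of helper lineages separated the classes less: 2 of 24 tested were higher and 3 lower (median 0.26). Gata3, the type 2 and tissue regulatory factor, had 186 and 79.9 CPM in regulatory T cells, against 70.8 and 75.3 CPM in conventional CD4 T cells (1.0 ± 0.26, adjusted p = 0.0416). That call rests on library 1, where the difference was 1.39, against 0.09 in library 2, and neither DESeq2 (adjusted p = 0.272) nor a fit with no filter on low counts (0.0782) made it. Nfil3 had 82.1 and 79.9 CPM, against 24.6 and 19.6 CPM (1.88 ± 0.31, adjusted p = 0.00284). Tbx21 (T-bet), the type 1 factor, had 2 UMIs in regulatory T cells, both in library 2, against 50 and 48.0 CPM, a ratio of 0.0839 (0.0101 to 0.307; adjusted p = 0.00915). Runx3 (-1.04 ± 0.19, adjusted p = 0.00514) and Lef1 (-1.18 ± 0.25, adjusted p = 0.0139) were lower. Maf was high in both classes, with 1587 and 1063 CPM, against 1368 and 1015 CPM (0.15 ± 0.22, adjusted p = 0.801). Tbx21 differed by -1.58 in library 2 alone and lost its call with thinned cells (adjusted p = 0.148). Lef1 lost it with thinned cells (0.0770), with the wider conventional class (0.319) and by DESeq2 (0.0584).

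Homing receptors differed in both directions, with 6 of 23 higher and 4 lower (median 0.49). Ccr6, the receptor for Ccl20, had 129 and 55.9 CPM in regulatory T cells, against 6.71 and 1.05 CPM in conventional CD4 T cells (4.69 ± 0.50, adjusted p = 0.000299). Ccr4 had 57.5 and 55.9 CPM, against 8.20 and 5.95 CPM (2.96 ± 0.66, adjusted p = 0.0251), and the monocyte chemokine receptor Ccr2 had 1015 and 855 CPM, against 356 and 324 CPM (1.48 ± 0.18, adjusted p = 0.000299). Cxcr6, the receptor for Cxcl16, was lower, with 35.6 and 47.9 CPM, against 479 and 373 CPM (-3.54 ± 0.25, adjusted p = 1.18e-05). The integrin chain Itga4 (-1.02 ± 0.16, adjusted p = 0.00181) was lower too, but was not called against the wider conventional class (-0.53, adjusted p = 0.0843). The calls of Cxcr4 (1.19 ± 0.30, adjusted p = 0.0395) and of the retention marker Cd69 (-0.69 ± 0.17, adjusted p = 0.0352) were lost under 3 and 5 alternatives, the fit without the block among them (adjusted p = 0.0779 for Cxcr4 and 0.0519 for Cd69). Ccr6 differed by 4.23 and 5.61 in library 1 and library 2 alone.

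Itgae, the CD103 integrin chain that binds epithelial E-cadherin, depended on which cells were called conventional. It had 148 and 136 CPM in regulatory T cells, against 30.6 and 7.70 CPM in conventional CD4 T cells (2.79 ± 0.54, adjusted p = 0.00812). With CD3-positive cells lacking Cd4 included in the conventional class the direction turned (-0.57, adjusted p = 0.541), and DESeq2 (adjusted p = 0.507) and the fit without the block (0.0545) did not call it. In library 1 alone it differed by 2.27 and in library 2 alone by 4.12.

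Some genes downstream of IL-2 and of the T cell receptor were higher. Of 11 tested IL-2 response and survival genes, 3 were higher and 1 lower (median 0.32). Socs2, a STAT5 target that damps cytokine signals, had 194 and 128 CPM in regulatory T cells, against 21.6 and 21.0 CPM in conventional CD4 T cells (2.98 ± 0.34, adjusted p = 0.000240). The survival kinase gene Pim1 had 1119 and 1326 CPM, against 740 and 746 CPM (0.71 ± 0.14, adjusted p = 0.00915), and the phosphatase gene Dusp4 had 90.3 and 120 CPM, against 24.6 and 23.1 CPM (2.08 ± 0.34, adjusted p = 0.00284). Bcl2l11 (Bim), which drives death on cytokine withdrawal, was lower, with 73.9 and 95.9 CPM, against 290 and 314 CPM (-1.84 ± 0.30, adjusted p = 0.00293). Bcl2 and Mcl1 were not called (-0.60 ± 0.33 and -0.15 ± 0.15, adjusted p = 0.384 and 0.665). Pim1 was not called without the filter on low counts (adjusted p = 0.219).

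Of 18 tested genes of NF-kappaB and T cell receptor signalling, 4 were higher and 1 lower (median 0.26). Traf1 (0.86 ± 0.17, adjusted p = 0.00973), Malt1 (0.80 ± 0.20, 0.0395), Nfkb1 (0.69 ± 0.18, 0.0458) and Birc3 (0.74 ± 0.19, 0.0458) were higher and the activation factor Nfatc1 was lower (-0.89 ± 0.20, 0.0200). Each lost its call under at least 1 alternative, with Traf1 losing it under 1, Malt1 under 3, Nfkb1 and Nfatc1 under 5 each and Birc3 under 8 of 14. Nr4a1, an immediate target of receptor signalling, had 153 and 95.9 CPM in regulatory T cells, against 147 and 123 CPM in conventional CD4 T cells (-0.01 ± 0.23, adjusted p = 0.999).

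None of 14 tested glycolysis and cholesterol genes passed in edgeR (median -0.26). At an unadjusted p under 0.05 there were 4, and DESeq2 called 0. Of 17 genes that tissue dissociation induces, 4 were higher and none lower (median -0.09): Fos, Jun, Dusp1 and Zfp36, at 1.13 ± 0.30, 1.05 ± 0.23, 1.20 ± 0.22 and 0.78 ± 0.16 (adjusted p = 0.0468, 0.0171, 0.00528 and 0.0127). Junb, Ier2 and Hspa1a were not called. The part of tissue handling in the other calls was not tested. Fos was not called by DESeq2 (0.0776) or without the block (0.0718), and Zfp36 not with no filter on low counts (0.209). Against the wider conventional class, Fos turned (-0.13, adjusted p = 0.893) and Jun (0.00, adjusted p = 0.998) and Zfp36 (0.35, adjusted p = 0.304) were not called.

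**Figure D4:**
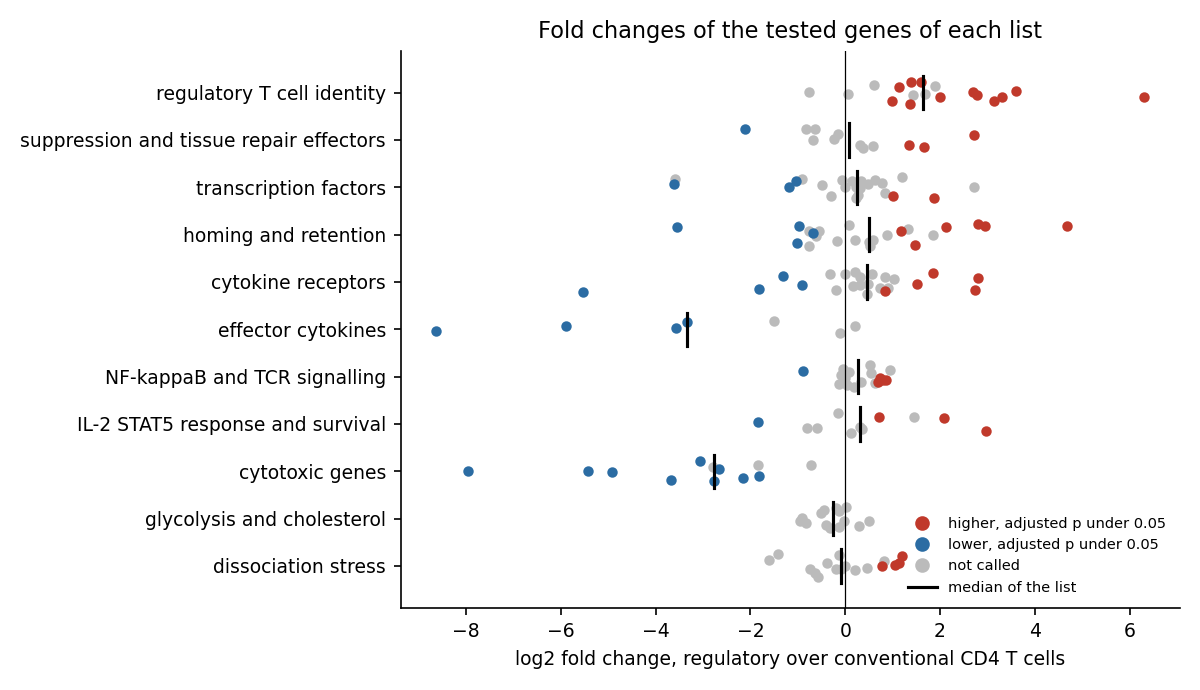
Log2 fold changes, regulatory over conventional CD4 T cells (x axis), of every tested gene in 11 lists (rows; each point is 1 gene, red higher, blue lower, grey not called; black bars are list medians). Identity genes lie to the right with a median of 1.64, cytotoxic genes to the left with a median of -2.78, and the glycolysis list has no called gene.

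Genes named by the size of their called difference, with at least 20 CPM in the higher class, added some outside these lists. Genes named by this rule, besides Lrrc32 and other list members, included Prg4 (lubricin), with 79.3 and 87.9 CPM in regulatory T cells, against 0 and 0.700 CPM in conventional CD4 T cells, a ratio of 171 (44.4 to 1462; adjusted p = 0.000703), and the GTPase gene Gbp2b, with 71.1 and 112 CPM, against 2.24 and 0.350 CPM (6.28 ± 0.84, adjusted p = 0.00140). Prg4 was found in 13 and 5 members, and its difference was 7.22 both with all barcodes and without the mixed ones. In library 1 and library 2 alone it was 8.98 and 6.79. Gbp2b belongs to a family of similar genes among which reads can be split. It was found in 10 and 4 members and differed by 4.90 and 7.98 in library 1 and library 2 alone. Frmd5, Ttn, Lrig1, Pdgfb and Ankrd55 were higher by 3.55 to 5.0. Frmd5 differed by 4.52 and 5.76 in library 1 and library 2 alone, and Pdgfb was not called against the wider conventional class (adjusted p = 0.322). Ccn1 was called too (3.69 ± 0.90, adjusted p = 0.0352), but came from 3 cells and differed by 4.78 and 3.71 in library 1 and library 2 alone. It was not called with doublets removed (adjusted p = 0.0594) and was not tested without the mixed barcodes.

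Among the genes named as lowest were neutrophil transcripts. Ngp had 8.21 and 24.0 CPM in regulatory T cells, against 271 and 198 CPM in conventional CD4 T cells (-4.16 ± 1.05, adjusted p = 0.0373), and Cd177 had none, against 51.5 and 24.9 CPM, at least 5.45-fold lower (adjusted p = 0.0214). They move with the neutrophil marker sums given above, and without mixed barcodes Ngp differed by -0.73 (adjusted p = 0.622). In library 1 and library 2 alone Ngp differed by -5.02 and -3.04, and it was not called without the block (0.0568), with doublets removed (0.195) or by DESeq2 (0.0886). Cd177 was not called when regulatory T cells needed a Cd4 UMI (0.0514) and was not tested without mixed barcodes. Actn2 and Sema4a had 1 UMI each in regulatory T cells, and Alkbh8 had none, against 22.4 and 26.6 CPM, at least 4.13-fold lower (adjusted p = 0.0158). The ratios were 0.0594 for Actn2 (0.00149 to 0.336) and 0.0582 for Sema4a (0.00146 to 0.329), and neither was called by DESeq2 (adjusted p = 0.0824 and 0.0642) or with thinned cells (0.182 and 0.337). Actn2 differed by -1.76 in library 2 alone and Sema4a by -3.44 in library 1 alone, the libraries that held their UMIs.

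Against CD8 alpha beta T cells, which share the regulatory T cell sums with the comparison above, 512 of 7387 genes (6.93%) were higher and 379 (5.13%) lower, with a median over all genes of -0.03. Of the identity list 14 of 18 were higher and none lower (median 2.87). Tnfrsf4 had 1234 and 567 CPM in regulatory T cells, against 4.90 and 10.3 CPM in CD8 alpha beta T cells (6.73 ± 0.35, adjusted p = 4.93e-07), and Icos had 832 and 975 CPM, against 231 and 285 CPM (1.80 ± 0.16, adjusted p = 1.23e-05). Ccr6 had no UMI in CD8 alpha beta T cells, which places it at least 177-fold higher in regulatory T cells, and Ccr4 had 1 (ratio 276, 45.6 to 11282), in library 1, where the difference was 6.36. Maf had 1587 and 1063 CPM, against 37.1 and 41.0 CPM (5.02 ± 0.27, adjusted p = 3.48e-07), and Il10 419 and 200 CPM, against 14.7 and 10.0 CPM (4.76 ± 0.37, adjusted p = 3.60e-06). The short-chain fatty acid receptor gene Ffar2 had 35.6 and 79.9 CPM, against 1.09 and 0.667 CPM (5.78 ± 0.73, adjusted p = 0.000193), and the giant muscle protein gene Neb 290 and 336 CPM, against 5.99 and 6.00 CPM (5.53 ± 0.37, adjusted p = 4.73e-06). Slit3 was also called (5.51 ± 1.05, adjusted p = 0.00389), with 97.2% of its UMIs in 1 cell of library 1, and was not tested without the mixed barcodes. In library 1 and library 2 alone, Tnfrsf4 differed by 7.93 and 5.77, Ffar2 by 4.84 and 6.72 and Slit3 by 7.09 and 2.50.

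Here 10 of 18 NF-kappaB and T cell receptor genes were higher and none lower (median 0.83), led by Nfkbid (1.73 ± 0.35, adjusted p = 0.00591), Malt1 (1.57 ± 0.21, 0.000292) and the feedback inhibitor gene Nfkbia (1.54 ± 0.25, 0.00125). Nfkbid differed by 1.35 and 2.32 and Nfkbia by 2.0 and 0.89 in library 1 and library 2 alone. Zbtb7b (ThPOK), the factor of the CD4 lineage, had 62.9 and 47.9 CPM in regulatory T cells, against 12 and 9.67 CPM in CD8 alpha beta T cells (2.43 ± 0.35, adjusted p = 0.000612). Of the cytotoxic list 10 of 12 genes were lower (median -4.26, or -4.12 with Prf1 at its bound). Gzma had 71.1 and 128 CPM, against 5700 and 2875 CPM (-5.59 ± 0.69, adjusted p = 0.000186), or -6.32 in library 1 alone and -4.49 in library 2 alone. Eomes, Itgax and Prf1 had no UMI in regulatory T cells and were at least 8.08, 9.81 and 16.4-fold lower, a call that Eomes lost with thinned cells (adjusted p = 0.0531). Itgae did not separate these classes, with 148 and 136 CPM, against 239 and 86.7 CPM (-0.37 ± 0.42, adjusted p = 0.655).

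Most regulatory T cells held Ikzf2. An Ikzf2 UMI was found in 50 of 75 members of library 1 and 23 of 30 of library 2. In phagocytes it was found in 2.89% and 3.62% of cells, at the depths given above. Cells with and without it are described and not tested. A missing UMI at this depth does not show that a gene is off.

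Il1rl1, Klrg1, Gata3 and Areg were found more often in cells with Ikzf2 by unthinned share of cells. These shares have no test. Il1rl1 was detected in 36.0% of 50 members with Ikzf2 and 12% of 25 without in library 1, and in 6 of 23 and 0 of 7 in library 2, where 0 of 7 allows up to 42.9%. Thinned, the library 1 shares were 23.4% and 8%. Klrg1 was found in 24.0% and 4% of the same groups in library 1 and in 5 of 23 and 0 of 7 in library 2. For Gata3 the shares were 56.0% and 32.0% in library 1 and 26.1% and 14.3% in library 2, but thinned shares in library 2 had the other order, 9.52% and 14.3%. Areg was found in 22.0% and 12% in library 1 and in 39.1% and 28.6% in library 2. Summed levels with and without Ikzf2 in library 2 were 73.1 and 125 CPM for Gata3 and 261 and 250 CPM for Areg. In library 1 they were 250 and 75.4 CPM for Gata3 and 285 and 89.1 CPM for Areg. The groups had median depths of 3797.5 and 4323 UMIs in library 1 and of 3916 and 3356 UMIs in library 2.

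Maf was found more often in cells without Ikzf2, and so was Il10 by share of cells. Il10 was detected in 36.0% of members with Ikzf2 and 52.0% without in library 1 (thinned, 23.4% and 28.0%), and in 8.70% and 71.4% in library 2 (9.52% and 42.9%). The summed Il10 level went the other way in library 1, with 539 CPM with Ikzf2 and 206 CPM without. No order of levels is read from that library. The cell with the largest part of the Il10 UMIs lay in its group with Ikzf2. Its group without Ikzf2 held the barcode of 27273 UMIs with fibroblast markers. In library 2 the summed Il10 level was 83.5 CPM with Ikzf2 and 709 CPM without. Maf was detected in 84.0% and 96.0% in library 1 and in 78.3% and 100% in library 2, and thinned in 68.1% and 92.0% and in 57.1% and 100%, with higher summed levels in cells without Ikzf2 in both libraries (1302 and 1941 CPM, 898 and 1959 CPM). With 7 cells without Ikzf2 in library 2, these shares are coarse.

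**Figure D5:**
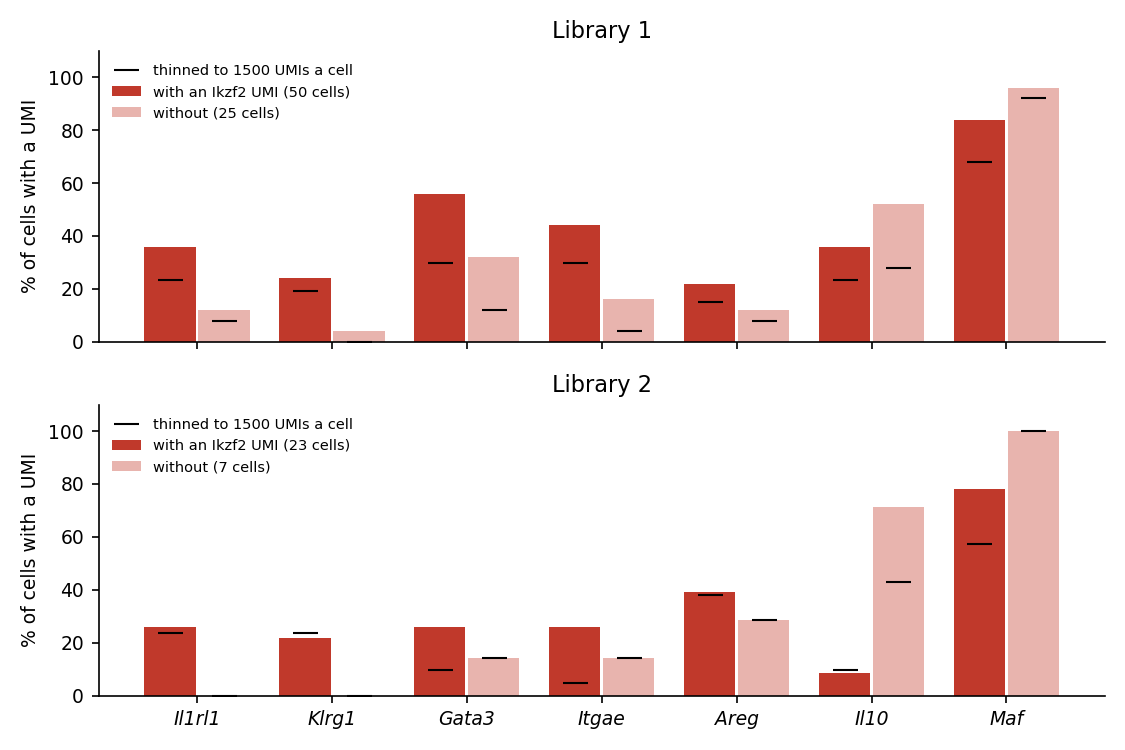
Percent of regulatory T cells with at least 1 UMI of 7 genes, in cells with an Ikzf2 UMI (dark bars) and without (light bars), for library 1 (top, 50 and 25 cells) and library 2 (bottom, 23 and 7 cells); black dashes are the same shares with each cell thinned to 1500 UMIs. Il1rl1 and Klrg1 were found more often with Ikzf2 in both libraries, and Maf more often without.

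Dividing cells lay outside the rule. Among barcodes that met every other condition, 9 of 84 in library 1 (10.7%, exact 95% interval 5.02 to 19.4) and 5 of 35 in library 2 (14.3%, 4.81 to 30.3) had more than 2 UMIs of Mki67 and Top2a. The shares were 17.4% (13.3 to 22.1) and 15.4% (12.9 to 18.3) in conventional CD4 T cells and 22.0% (18.3 to 26.2) and 27.1% (24.1 to 30.3) in CD8 alpha beta T cells. The intervals of regulatory and conventional CD4 T cells overlapped in both libraries. Just inside the limit, 4 and 1 members had 2 UMIs, and the lowest value outside it was 3 in library 1 and 12 in library 2.

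Promoters were searched for the forkhead motif GTAAACA, a sequence that Foxp3 and other forkhead factors bind, on both strands (TGTTTAC on the other) in the 250 bases before any start that RefSeq lists for a gene (GRCm38.p6). It was present for 8 of 156 matched genes higher than in conventional CD4 T cells (5.13%), 7 of 143 lower genes (4.90%), 164 of 5807 tested genes (2.82%) and 956 of all 27025 genes of the table (3.54%). The higher and lower genes had about the same share. Il1rl1 and Pim1, called list genes with a match, are shown with the motif in capitals, at chr1:40439379-40439628 and chr17:29492835-29493084, both on the plus strand. Both windows lie before an internal RefSeq start, within the annotated genes (Il1rl1, chr1:40429570-40465415, and Pim1, chr17:29490753-29496112), and not before the gene's first base. The motif starts 117 and 70 bases before that internal start. A match is a description and not a binding site.
Il1rl1: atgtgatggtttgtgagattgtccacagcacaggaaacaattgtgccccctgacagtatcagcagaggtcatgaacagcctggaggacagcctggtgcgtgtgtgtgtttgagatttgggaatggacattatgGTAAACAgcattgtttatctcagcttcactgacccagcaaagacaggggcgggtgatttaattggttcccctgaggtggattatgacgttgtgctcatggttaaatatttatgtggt
Pim1: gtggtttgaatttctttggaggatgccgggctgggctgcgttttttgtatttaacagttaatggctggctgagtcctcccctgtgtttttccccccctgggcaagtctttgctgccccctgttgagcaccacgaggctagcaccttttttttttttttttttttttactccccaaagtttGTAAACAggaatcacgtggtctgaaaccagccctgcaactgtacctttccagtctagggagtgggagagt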

How the data were processed

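The authors deposited raw UMI counts per gene and barcode for each library. Cell Ranger is named as version 7.0.0 per the file headers and as 8.0.0 per the submitters' processing notes, which also name mm10. Capture with V3 and library reagents of v2 are both stated per the labels' protocols. Library totals were 76622643 and 94204110 UMIs, a limit on rare cells and low genes.

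Barcodes were gated on raw counts, and each class was summed per library. The 10 sums (regulatory T, conventional CD4 T, CD8 alpha beta T, Ncr1-positive and B cells) entered edgeR 4.0.16 (R 4.3.3; TMM, filterByExpr, 7397 genes, quasi-likelihood test, Benjamini-Hochberg adjustment), with the library as a block, since classes of 1 library share a colon sample. Gate genes were left out of calls. Cells were also thinned to 1500 UMIs, and Scrublet (scanpy 1.11.5) marked doublets at 0.8% per 1000 barcodes, which were kept in the main values (1 member in each library). Counts were simulated for the comparison with conventional CD4 T cells (6948 genes). Of log2 changes of 2 and -2, 100% and 62.0% were recovered, and of changes of 1 and -1, 38.0% and 20.4%. The simulation gave every gene the same spread and no library difference. Changes were set only in genes of at least 20 CPM in conventional CD4 T cells. Recovery in the real data, where libraries differed, was not measured and can be lower.

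Named genes were list members and, in each direction, the 12 called genes with the largest differences, the same direction in both libraries and at least 20 CPM in the higher class, without gate, mitochondrial, ribosomal, haemoglobin, immunoglobulin, T cell receptor segment, sex-linked marker and unnamed genes. Members and lists were chosen with earlier results of these data known. Alternatives were DESeq2 1.42.0, other scaling, filters, gates, thinning, doublet removal, no block and single libraries. The planned fit of subsets within regulatory T cells was not made, with too few cells.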

Additional observations from a re-analysis of the deposited data

Results flagged for a closer look

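Barcodes with a Foxp3 UMI that failed a single condition are listed where they numbered more than 3. This limit only selects what is listed, and no excess was tested. In library 1, 10 failed only by more than 3 Epcam UMIs, 9 only by more than 2 UMIs of Mki67 and Top2a, 4 only by a Csf1r UMI and 4 only by having no Cd3d, Cd3e or Cd3g UMI. In library 2, 5 failed only by Mki67 and Top2a, 4 only by Epcam and 4 only by a Cd8b1 UMI. Those that failed only by Epcam had a median of 22107 and 19677.5 UMIs in library 1 and library 2, against 4056 and 3651.5 in members. Those that failed only by having no CD3 UMI had a median of 2217 UMIs in library 1. In library 2 this was 1 barcode, with 2474 UMIs.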

How the results depend on the processing

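Of 189 named gene values, 2371 pairs of gene and alternative had a test: 2205 kept their direction and call, 164 lost the call and 2 turned. Over all genes called against conventional CD4 T cells, tested again or not, sharing ranged widely. With thinned cells, 105 of 212 higher and 93 of 179 lower genes were also called. When regulatory T cells too had to hold a Cd4 UMI, as conventional CD4 T cells did, 139 of 212 and 128 of 179 were. The wider conventional class shared 132 and 101, and a minimum of 500 genes per barcode shared 211 and 179. Against CD8 alpha beta T cells, thinning shared 233 of 512 and 198 of 379. Against the conventional class widened beyond Cd4-positive cells, Itgae (-0.57) and Fos (-0.13) turned; against CD8 alpha beta T cells, Tnfsf8 was -5.86 without library 1 and 2.03 without library 2; the causes were not tested. Genes higher than in conventional CD4 T cells numbered 141 with thinned cells and 344 with only these classes in the fit, against 212. Lower genes numbered 566 with no filter on low counts, 288 with only these classes and 116 by DESeq2, against 179. In the CD8 comparison, 263 were higher with thinned cells, against 512, and 896 lower with no filter and 226 by DESeq2, against 379. Thinning removes UMIs and leaves out shallower cells, and the other causes were not tested. Without the replicate block the counts were 180 and 150 (conventional CD4) and 478 and 332 (CD8). With mixed barcodes left out, chosen after seeing the data, they were 270 and 230 (conventional CD4) and 518 and 409 (CD8). Of the main calls, 180 of 212 and 165 of 179 (conventional CD4) and 405 of 512 and 345 of 379 (CD8) were among them. A single mixed barcode held 27273 of the 374010 UMIs of regulatory T cells of library 1. DESeq2 called 2 higher and 0 lower genes of the NF-kappaB list, against 4 and 1, and 1 and 2 of the transcription factors, against 2 and 3. The share of T cells was 1.46% to 5.26% by single library and 1.96% to 3.55% as a mean under the alternatives. Leaving out a library leaves no residual degrees of freedom, so those values have no test. With 30 members in library 2, genes seen in few cells are limited by depth.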
